A study of Mus musculus with 6 samples.

Results

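The myogenic basic helix-loop-helix (bHLH) factors were described here together with their dimerisation partners and the Pax factors that precede them, in C2C12 myotubes with and without DJ-1 knockdown. The probes were those whose gene name in the deposited report was MYOD1, MYF5, MYF6, MYOG, TCF3, TCF12, PAX7 or PAX3. This gave 13 of the 45281 probes on the array, for 8 of 30854 gene names, and 7 of the 13 were bright enough to be tested. The 2 probes listed as TCF3 carry the gene number of Tcf7l1, an HMG-box factor of the Wnt pathway that shared the older name, and not that of the E protein Tcf3 (E2A). They are called Tcf7l1 below, and the E2A probes, listed as TCFE2A, were added for comparison.

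C2C12 cells are mouse myoblasts that grow as single cells in rich medium and form myotubes in low serum. Myoblasts received 60 nM of scramble siRNA or of siRNA against DJ-1 (siDJ-1), differentiation was started 48 h later, and RNA was taken after 4 days (96 h) of differentiation. Each group had 3 arrays and a single siRNA treatment, so effects of the DJ-1 siRNA on other transcripts cannot be told apart from loss of DJ-1. The labels call the arrays replicates but do not say whether they came from separate cultures, so p-values measure the spread between these samples, which may be technical. With 3 arrays a group, precision is limited throughout. All levels are normalized log2 signals unless called deposited signals, and a change is siDJ-1 minus scramble on the log2 scale, with its standard error (SE) and a limma p-value adjusted over all tested probes by the Benjamini-Hochberg method. A probe was called changed at an adjusted p under 0.05. In RNA from whole cultures, fewer cells expressing a gene and less RNA per cell cannot be told apart.

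MyoD and Myf5 commit cells to the muscle lineage, downstream of Pax3 and Pax7 in embryonic and satellite-cell progenitors, and myogenin and Myf6 (MRF4) act later, during terminal differentiation. Each binds the E-box motif CANNTG as a dimer with an E protein such as E2A or Tcf12 (HEB), together with MEF2 factors. Id proteins lack the basic region that contacts DNA and hold E proteins in dimers that do not bind, and other bHLH repressors compete for partners or sites.

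Because these factors read E-boxes, the RefSeq promoter windows (GRCm38.p6, 250 bases before the annotated start) of the members and of a list of their textbook target genes were searched for CANNTG, which reads the same on both strands, and for CAGCTG, which is a form of CANNTG. Entries were found for 6 of the 9 gene names looked up, which included both readings of TCF3. CANNTG was present in 22 of 27 start sites of target genes (81.5%) and in 66.2% of 32851 start sites in the table. For CAGCTG the counts were 13 of 27 (48.1%) and 13%. The list was drawn up from genes known for such regulation, so this difference describes the list. The Acta1 and Ckm windows hold CAGCTG, and the probes of these genes given below were not called. The Mef2c and Myh8 windows hold 0 CAGCTG, and probes of both genes fell. Whether these words go with a fall was not tested. The following 4 windows, chosen after the values were seen, are those of Myog itself and of Chrna1, Musk and Des, target genes with probes that fell. Capitals mark CANNTG. All of them end at the base before the transcription start, and are given 5′ to 3′ on the gene's strand. The Myog window lies at chr1:134289754-134290003 (plus strand) and holds CACATG, beginning 138 bases before the start, and CAGTTG, 12 bases before it. That of Chrna1 is chr2:73580339-73580588 (minus strand), with CAGCTG at 92 and 44 bases and CAGGTG at 73 bases before the start. The Musk window, chr4:58285712-58285961 (plus strand), holds CATCTG at 177 bases, CACTTG at 100 bases and CAGCTG at 68 bases, and the Des window, chr1:75360042-75360291 (plus strand), holds CAAATG at 220 bases and CAGCTG at 36 bases before the start.
Myog: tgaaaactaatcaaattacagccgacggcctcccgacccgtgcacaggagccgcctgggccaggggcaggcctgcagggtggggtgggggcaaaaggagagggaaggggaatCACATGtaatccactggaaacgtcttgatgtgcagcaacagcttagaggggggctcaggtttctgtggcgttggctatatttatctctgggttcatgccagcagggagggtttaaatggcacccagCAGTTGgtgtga
Chrna1: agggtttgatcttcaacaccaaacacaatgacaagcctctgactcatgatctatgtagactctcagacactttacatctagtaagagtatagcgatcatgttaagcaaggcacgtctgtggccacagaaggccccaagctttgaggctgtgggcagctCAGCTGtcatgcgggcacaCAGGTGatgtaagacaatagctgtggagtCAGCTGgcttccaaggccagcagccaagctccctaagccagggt
Musk: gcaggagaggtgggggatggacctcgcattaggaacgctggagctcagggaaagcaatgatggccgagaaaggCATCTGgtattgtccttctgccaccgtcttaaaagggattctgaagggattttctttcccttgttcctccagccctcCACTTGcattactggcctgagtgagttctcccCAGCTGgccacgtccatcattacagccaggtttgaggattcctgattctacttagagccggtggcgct
Des: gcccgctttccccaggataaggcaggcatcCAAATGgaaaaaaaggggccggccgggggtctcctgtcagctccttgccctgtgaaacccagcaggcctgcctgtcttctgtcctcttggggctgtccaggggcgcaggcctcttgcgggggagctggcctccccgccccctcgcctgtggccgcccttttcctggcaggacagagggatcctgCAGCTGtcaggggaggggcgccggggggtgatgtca

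The knockdown was checked first. Park7, the gene of DJ-1, measured 13.59, 13.37 and 13.63 in scramble myotubes against 12.48, 12.49 and 12.15 in siDJ-1 myotubes. Every siDJ-1 array lay below every scramble array, and the level fell by 1.16 (SE 0.14, limma adjusted p = 0.00344), to 44.7% of scramble (95% CI 35.7 to 55.9%). The labels therefore matched the target gene on all 6 arrays. The differentiation markers Ckm, Myh3 and Acta1, which mark myotubes, were detected on all 6 arrays. Arrays of the groups also differed in measurement noise. The number of probes detected (detection p under 0.05) was 16985, 17399 and 18179 in scramble myotubes against 18704, 18857 and 18408 in siDJ-1 myotubes, and the median standard error between beads of a probe was 11.3, 8.30 and 8.66 against 7.17, 6.36 and 5.88 signal units. Bead noise was thus higher on every scramble array, and its part in the results was not tested.

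Of the 7 tested probes of the members, 2 were lower in siDJ-1 myotubes and 0 were higher. Across the array 30.1% of 17890 tested probes were called, 13.6% lower and 16.5% higher. At an unadjusted p under 0.05, 3 member probes were lower and 0 higher, against 19.2% and 23.6% of all tested probes. The median change of the 7 probes was -0.11, and that of all tested probes 0.05. Non-overlapping groups were seen for 4 of the 7 probes, 3 lower and 1 higher, against 48.5% of all tested probes (22% lower and 26.5% higher). These shares are over few probes and do not set the family apart from the array. The called probes were those of Myod1 and Myf6. The array-wide count of 5387 called probes fell to 2564 without siDJ-1 replicate 1 and to 2718 without siDJ-1 replicate 3, and the count among the members was 1 when scramble replicate 1 or 3 or siDJ-1 replicate 2 or 3 was left out, since Myf6 then missed the threshold.

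**Figure D1:**
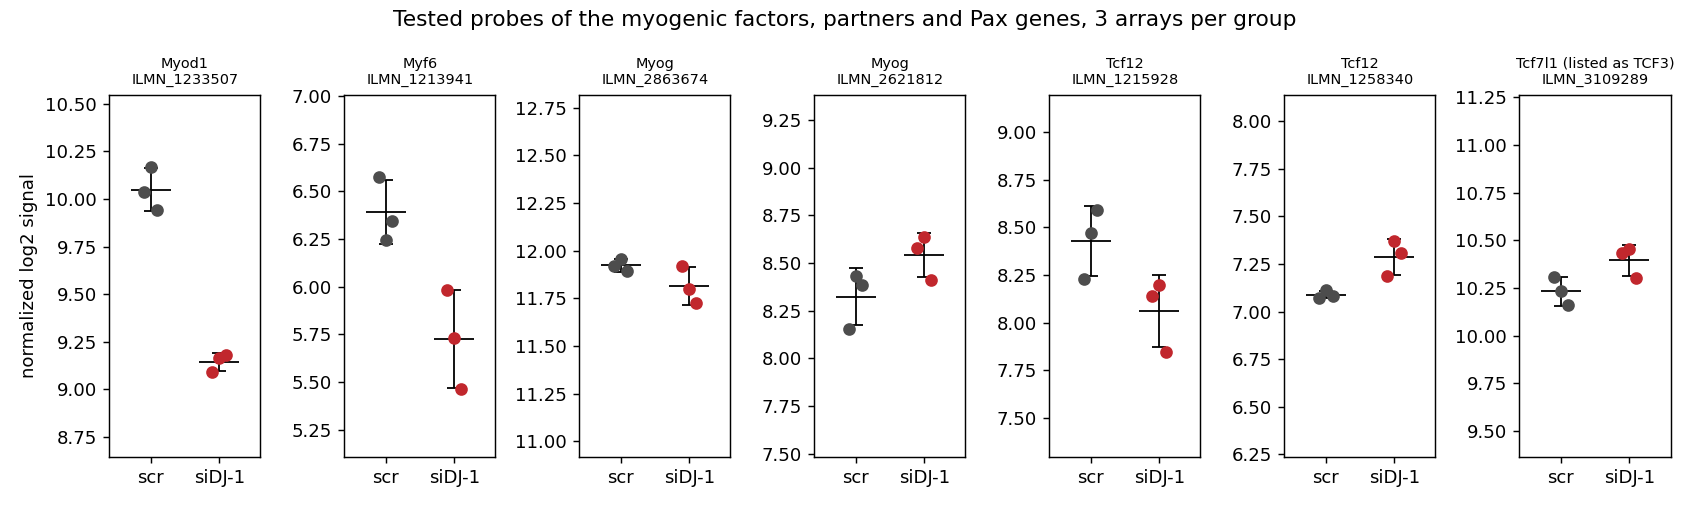
Normalized log2 signal of the 7 tested probes on each array, scramble in grey and siDJ-1 in red, with lines for the group mean and bars of 1 SD (n = 3); each panel spans the same range of log2 units. Myod1 and Myf6 show siDJ-1 arrays below all scramble arrays, while the Myog groups overlap at both probes.

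MyoD, which commits cells to muscle and stays expressed in C2C12 myotubes, was the member with the clearest difference. The Myod1 probe (ILMN_1233507) measured 10.03, 10.17 and 9.94 in scramble myotubes against 9.09, 9.16 and 9.18 in siDJ-1 myotubes. The siDJ-1 arrays lay close together (SD 0.05, n = 3) and all below the scramble arrays (SD 0.11, n = 3). Myod1 fell by 0.90 (SE 0.10, 95% CI -1.14 to -0.66, limma adjusted p = 0.00317), to 53.5% of scramble. The deposited signals, before any correction, were 1219, 1306 and 1084 against 674, 766 and 622. The call held under all 16 alternative settings, with changes from -0.95 to -0.76 and limma adjusted p of at most 0.0208. Of the 17890 tested probes, 724 (4.05%) fell further than Myod1.

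Myf5, the other determination factor, is mostly a gene of proliferating myoblasts. Its probe (ILMN_2710656) gave deposited signals of 180, 216 and 143 in scramble myotubes against 157, 186 and 155 in siDJ-1 myotubes. It was detected on scramble replicate 2 and siDJ-1 replicate 2 only, and the groups overlapped. It was not tested.

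Myogenin, the factor required for terminal differentiation, has 2 probes on the array and both were detected on every array. The probe ILMN_2863674 measured 11.92, 11.96 and 11.89 in scramble myotubes against 11.92, 11.80 and 11.72 in siDJ-1 myotubes. Its siDJ-1 arrays ranged from the scramble level to just below it, so the groups overlapped. The change was -0.11 (SE 0.10, limma adjusted p = 0.432), and the 95% CI allowed from 78.9 to 109% of scramble. Under a shift to the 75th percentile after background correction, and when both probes were averaged, its sign turned, to 0.02 and 0.05.
The other Myog probe (ILMN_2621812) measured 8.15, 8.43 and 8.39 against 8.58, 8.64 and 8.41. The siDJ-1 arrays were mostly above the scramble arrays, with siDJ-1 replicate 3 inside the scramble range. Its change was 0.22 (SE 0.12, limma adjusted p = 0.212), with a CI from 95.4 to 142% of scramble. Neither probe passed the test, and both intervals lie above the 53.5% measured for Myod1.

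Myf6 (MRF4), which marks late differentiation and adult fibres, was dim but detected on all 6 arrays. Its probe (ILMN_1213941) measured 6.57, 6.25 and 6.35 in scramble myotubes against 5.98, 5.73 and 5.47 in siDJ-1 myotubes. All siDJ-1 arrays lay below all scramble arrays. Myf6 fell by 0.66 (SE 0.16, 95% CI -1.05 to -0.28, limma adjusted p = 0.0243), to 63.1% of scramble. The deposited signals were 235, 220 and 206 against 195, 192 and 164, while the lowest detected signal of an array lay between 162 and 187, so the measured fold depends on the background correction. Without background correction the change was -0.23 (limma adjusted p = 0.0534). The call was also lost without the filter on dim probes (limma adjusted p = 0.0534) and when scramble replicate 1 or 3 or siDJ-1 replicate 2 or 3 was left out (changes from -0.69 to -0.53), with limma adjusted p from 0.0164 to 0.0717 over all alternatives.

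The change of Myod1 relative to Myog was taken within each array, where a shift common to all probes of an array cancels. Quantile normalization depends on intensity, so its effect need not cancel. The log2 difference between Myod1 and the Myog probe ILMN_2863674 was -1.88, -1.79 and -1.95 for scramble against -2.83, -2.64 and -2.54 for siDJ-1. The groups did not overlap, and the difference moved by -0.79 (2-sided exact permutation p = 0.1, the smallest that 3 against 3 arrays allow). Against the other Myog probe it moved by -1.12, again without overlap (exact permutation p = 0.1). These were 2 of 4 such pairs, all of which gave the same p, so none reaches 0.05 before or after adjustment. The log2 difference between the Myog probes moved by -0.33, also without overlap (exact permutation p = 0.1).

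The E proteins are the dimerisation partners. Tcf12 (HEB) has 4 probes listed, of which 2 were tested. The probe ILMN_1215928 measured 8.23, 8.47 and 8.59 in scramble myotubes against 8.14, 8.20 and 7.85 in siDJ-1 myotubes. The siDJ-1 arrays were all lower, by a narrow margin at scramble replicate 1. The change was -0.37 (SE 0.15, limma adjusted p = 0.1002) and passed the threshold only under a 75th percentile shift without background correction (-0.28, limma adjusted p = 0.0467; range over all alternatives 0.0467 to 0.261).
The probe ILMN_1258340, which is listed under Tcf12 through a cDNA that the RefSeq table does not hold, measured 7.07, 7.11 and 7.08 against 7.19, 7.37 and 7.31. Here all siDJ-1 arrays were higher, but the change of 0.20 (SE 0.10, limma adjusted p = 0.161) did not pass either. Without background correction it was 0.10. Neither probe was called. The log2 difference between them moved by -0.57 within arrays, without overlap (exact permutation p = 0.1). Of the remaining Tcf12 probes, ILMN_2976577 was not detected on any array, with deposited signals of 112, 183 and 147 against 142, 157 and 142. ILMN_2722602 was detected on siDJ-1 replicate 2 alone, with 178, 165 and 163 against 171, 181 and 138.

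The E2A probes were near background. ILMN_2596277 gave deposited signals of 157, 165 and 150 against 149, 160 and 153 and was not detected on any array. ILMN_2596278 gave 145, 138 and 154 against 159, 185 and 162 and was detected on siDJ-1 replicates 2 and 3. Its deposited siDJ-1 signals were all above its scramble signals, but its normalized values overlapped (5.09 on scramble replicate 3 against 5.02 on siDJ-1 replicate 1). The probe was detected on too few arrays to be tested.
Tcf4 (E2-2), a further E protein, measured 13.03, 13.03 and 13.09 against 12.99, 12.93 and 12.87. The siDJ-1 arrays were all slightly lower. Its change of -0.12 (SE 0.09, limma adjusted p = 0.353) did not pass and turned to 0.02 under the 75th percentile shift after background correction.

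Tcf7l1, listed as TCF3, represses Wnt targets and is not a partner of the myogenic factors. Its probe ILMN_3109289 measured 10.31, 10.23 and 10.16 against 10.43, 10.45 and 10.30, with a change of 0.16 (SE 0.10, limma adjusted p = 0.255). The groups overlapped narrowly, at scramble replicate 1 and siDJ-1 replicate 3. The probe ILMN_2771781 was detected on siDJ-1 replicate 1 alone and was not tested. Leaving out both Tcf7l1 probes gave 11 probes of 7 genes, 6 of them tested, with the same 2 lower and 0 higher.

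Pax3 and Pax7, the paired-box factors of muscle progenitors and satellite cells, were not detected on any array. The Pax3 probe (ILMN_2634195) gave deposited signals of 169, 146 and 137 against 138, 149 and 153, and the Pax7 probe (ILMN_2709591) 174, 151 and 138 against 143, 145 and 147. The groups overlapped at both probes, and neither was tested. On an array a signal below detection sets only an upper bound.

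**Figure D2:**
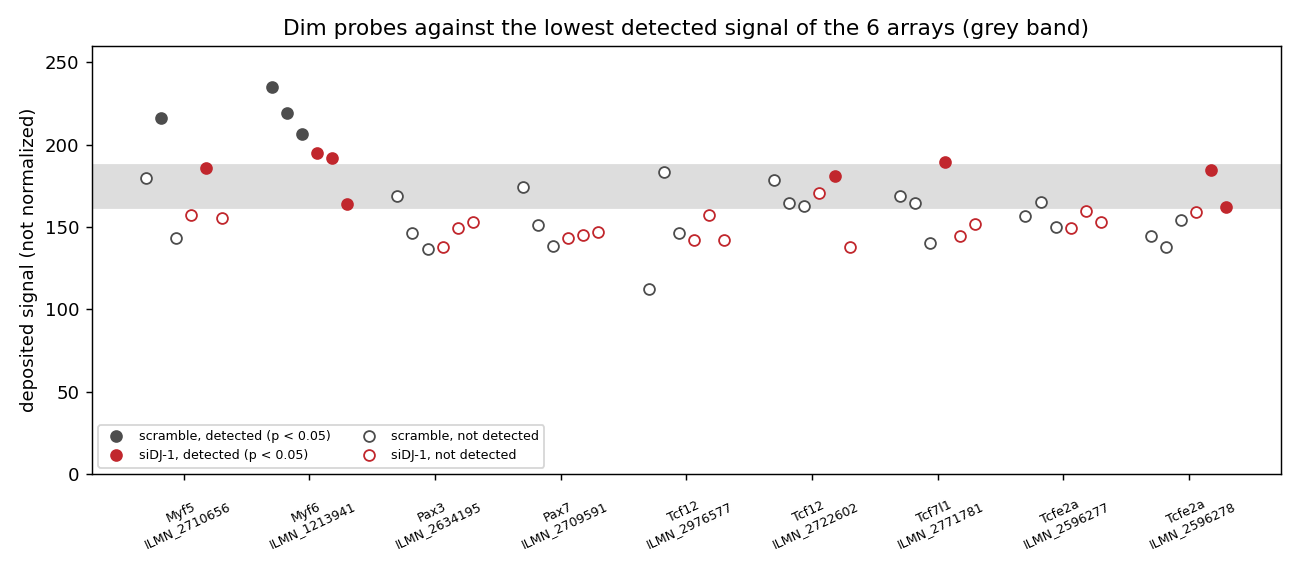
Deposited signal, not normalized, of Myf6 and of the untested probes of the members and E2A on the 6 arrays; filled points were detected (detection p under 0.05), open points were not, and the grey band spans the lowest detected signal of the 6 arrays (162 to 187). Myf6 is the only one of these probes detected on all arrays, and Pax3 and Pax7 lie at background throughout.

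The inhibitors of the family were taken from a list of 19 other bHLH partners, Id proteins and E-box repressors. This list, like those below, was chosen with earlier results of these data known. Of its 18 tested probes, 6 were lower (33.3%, beside 13.6% of all tested probes), 1 was higher (5.56%, beside 16.5%) and 11 were not called, with a median change of -0.14. Id3, which sequesters E proteins, measured 7.38, 7.88 and 8.01 against 6.57, 6.36 and 6.13. No siDJ-1 array reached the scramble range, and Id3 fell by 1.40 (SE 0.20, limma adjusted p = 0.00494), to 37.9% of scramble, and by 0.70 without background correction. Id1 measured 8.65, 9.09 and 9.02 against 8.42, 8.39 and 8.25. The groups did not overlap and Id1 fell by 0.57 (SE 0.14, limma adjusted p = 0.0260), but the call was lost under 7 of 16 alternatives. These were the replicate block (limma adjusted p = 0.0536), the fit without the filter on dim probes (limma adjusted p = 0.0578) and those without scramble replicate 2 or 3 or any siDJ-1 array (changes from -0.60 to -0.48), with limma adjusted p from 0.00430 to 0.0888 over all alternatives. The Id2 probes had changes of -0.16 and 0.25 with overlapping groups (limma adjusted p = 0.604 and 0.470), and the sign of each turned when a single siDJ-1 array was left out.

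Msc (musculin, MyoR), a bHLH repressor of MyoD targets, measured 6.70, 7.08 and 6.22 against 5.55, 6.28 and 5.43. Scramble replicate 3 and siDJ-1 replicate 2 overlapped. Its change of -0.91 (SE 0.29; -0.33 without background correction) missed the threshold (limma adjusted p = 0.0563) and passed it under 9 of 15 alternatives (limma adjusted p from 0.0159 to 0.171). Id4, Twist1 and Mdfi, further inhibitors, were not detected on enough arrays to be tested. The other called probes of the list were chosen for mention after their values were seen. Heyl, a repressor downstream of Notch, fell by 1.73 (SE 0.22, limma adjusted p = 0.00383), Hes6, which promotes differentiation, fell at all 3 probes (-0.57, -0.42 and -0.38), and Snai1, a zinc-finger repressor that binds E-boxes, rose by 0.54 at 1 probe and had a change of 0.24 that was not called at the other. Without scramble replicate 2, siDJ-1 replicate 1 or siDJ-1 replicate 3 the list had 2 lower probes in place of 6, and without scramble replicate 1 or 2 or siDJ-1 replicate 1 or 3 it had 0 higher.

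**Figure D3:**
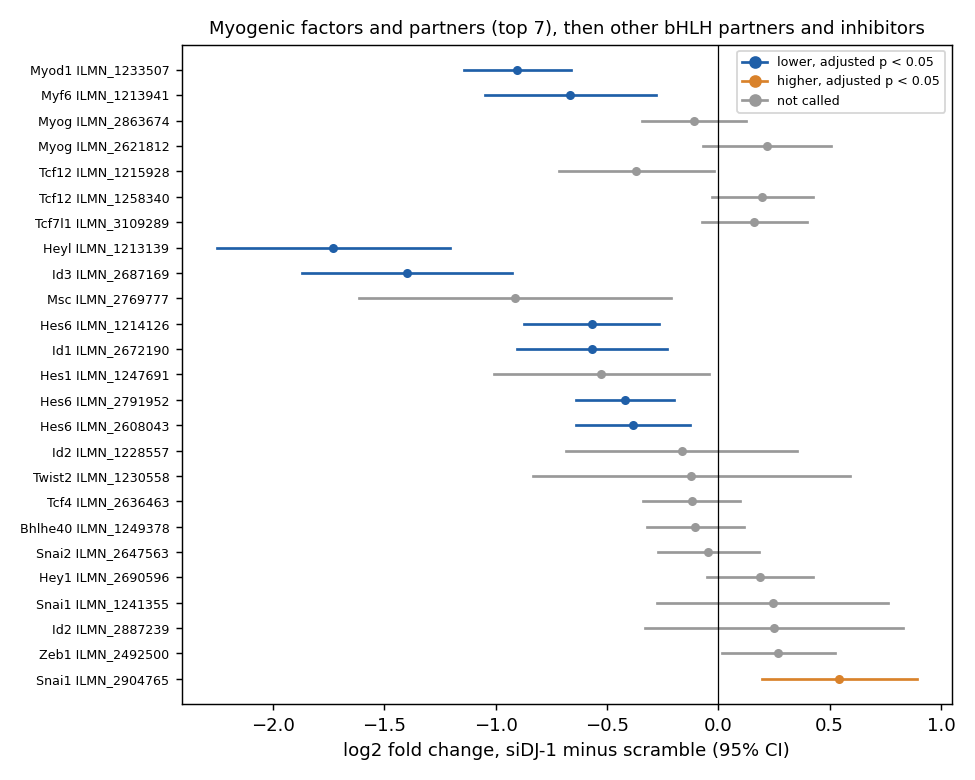
Change in log2 signal, siDJ-1 minus scramble, with 95% CI (n = 3 arrays per group) for the 7 tested member probes at the top and the 18 tested probes of other partners and inhibitors below. Blue marks probes called lower and orange those called higher; Heyl and Id3 lie furthest from 0, at -1.73 and -1.40.

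The products downstream were followed in a list of 33 textbook target genes of the myogenic factors, 31 of them on the array by name. Of 52 tested probes, 23 (44.2%) were lower, 3 (5.77%) higher and 26 not called, beside 13.6% lower and 16.5% higher of all tested probes, with a median change of -0.30 beside 0.05 for all tested probes. By gene, 16 had a probe that fell and 2 a probe that rose. The list was chosen with earlier results of these data known, so these shares describe the list. The number of lower probes was 14 without scramble replicate 3, 12 without siDJ-1 replicate 1 and 13 without siDJ-1 replicate 3. Under the 75th percentile shift it was 17 after background correction and 19 without, and the number of higher probes was 5 under both.
Mef2c, a MADS-box factor that is both target and partner of the myogenic factors, had the largest falls of the list at 3 of its 4 tested probes. The probe ILMN_2732465 measured 12.01, 11.94 and 11.99 against 9.55, 10.07 and 9.21. The siDJ-1 arrays were far below the scramble arrays, and Mef2c fell by 2.37 (SE 0.21, limma adjusted p = 0.00277), to 19.3% of scramble. Probes ILMN_1214950 and ILMN_2887992 also fell (-2.61 and -2.48), as did the dim probe ILMN_1220270 (-0.52).

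Other target probes called lower are given here, chosen after their values were seen. No list of synapse or sarcomere genes was tested. Musk, the receptor kinase of the synapse whose promoter is shown above, measured 7.90, 8.09 and 8.31 against 6.62, 6.71 and 7.25 and fell by 1.24 (SE 0.20, limma adjusted p = 0.00664). The groups stayed well apart. Acetylcholine receptor subunit genes fell at 1 or more probes each, Chrne (-0.96), Chrnd (-0.73), Chrng (-0.47), Chrna1 (-0.45 and -0.38) and Chrnb1 (-0.36), while 1 probe each of Chrnd, Chrng, Chrna1 and Chrnb1 was not called. Desmin (Des), the muscle intermediate filament, measured 14.72, 14.74 and 14.65 against 14.07, 14.20 and 14.15 and fell by 0.56 (SE 0.09, limma adjusted p = 0.00760). Myh8, the perinatal myosin heavy chain, fell at 3 probes (-1.11, -1.03 and -1.01), and the fusion gene Mymk fell at both of its probes (-0.66 and -0.63).

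Myl1, Ckm, Myh3 and Cdkn1a were also chosen for mention after their values were seen. Myl1, which encodes fast myosin light chains, differed between its probes. ILMN_2694907 measured 13.13, 13.08 and 12.99 against 11.89, 12.06 and 11.65 and fell by 1.20 (SE 0.13, limma adjusted p = 0.00309), whereas ILMN_2878542 had a change of -0.01 (SE 0.10, limma adjusted p = 0.947). Acta1, skeletal alpha-actin and the brightest probe of the list, measured 15.21, 15.35 and 15.33 against 15.35, 15.38 and 15.15. Its groups overlapped, the change was -0.01 (99.7% of scramble, limma adjusted p = 0.977), and its sign turned under 6 of 16 alternatives. Ckm (-0.07), Myh3 (-0.17) and the Cdkn1a probes (-0.24, -0.24 and -0.16), the last a cell cycle inhibitor switched on at differentiation, were not called either.
The higher probes were those of Cdkn1c (p57), another cell cycle inhibitor, and of Rb1, the retinoblastoma protein. Cdkn1c measured 10.17, 9.98 and 9.85 against 10.75, 10.94 and 10.80 and rose by 0.83 (SE 0.12, limma adjusted p = 0.00529). Every siDJ-1 array was above the scramble arrays. Rb1 rose by 0.69 and 0.53 at its 2 probes. The call of the first, ILMN_2679619, was lost without siDJ-1 replicate 1 or 3 (limma adjusted p = 0.0566 and 0.0642; over all alternatives 0.00120 to 0.0642).

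**Figure D4:**
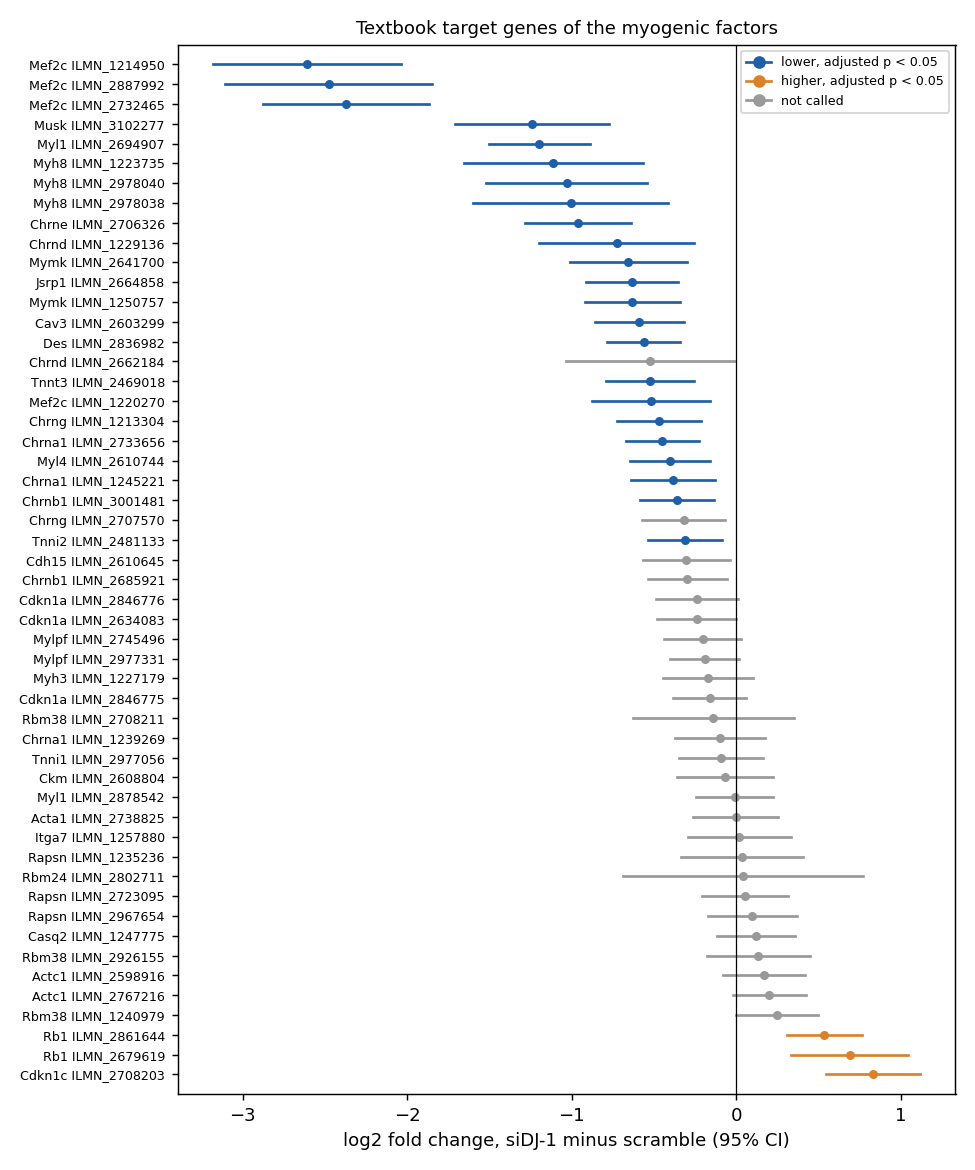
Change in log2 signal, siDJ-1 minus scramble, with 95% CI for the 52 tested probes of textbook target genes, ordered by change (n = 3 arrays per group). Blue marks the 23 probes called lower, orange the 3 called higher and grey the 26 not called.

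Of 16 cofactor genes of the family on the array, 26 probes were tested, 6 higher (23.1%) and 3 lower (11.5%), beside 16.5% and 13.6% of all tested probes, with a median change of 0.14. Hdac5, a class IIa deacetylase that represses MEF2 factors, measured 11.23, 11.04 and 11.23 against 12.06, 12.08 and 12.23 at ILMN_3112922. It was higher on every siDJ-1 array, by 0.96 (SE 0.11, limma adjusted p = 0.00316), and rose at its other tested probes too (0.89 and 0.82). Mef2b, close to background, was detected on 1 scramble array and on all siDJ-1 arrays, so it entered the test through the siDJ-1 arrays, and no change is given. Its probe is among the 6 higher ones, so that share is partly set by the filter. The lower probes were of Prmt5 (-0.54, -0.31 without background correction and -0.30 with its probes averaged), Smarcd3 (-0.49) and Setd7 (-0.39). These genes encode a methyltransferase, a chromatin remodelling subunit and a further methyltransferase. These calls were less firm. The count of lower probes was 1 without scramble replicate 1 or 3 and 0 without siDJ-1 replicate 1 or 3. It was also 1 under the 75th percentile shift after background correction and without the filter on dim probes.

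The list of Pax targets and genes of the myoblast state had 19 tested probes, 5 higher (26.3%) and 2 lower (10.5%), beside 16.5% and 13.6% of all tested probes, with a median change of 0.22. Vcam1, an adhesion molecule of myoblasts, rose by 0.73 (SE 0.13, limma adjusted p = 0.00863) at 1 of 2 tested probes, and by 0.31 without background correction. Sox8, a satellite-cell factor, fell by 1.02 (SE 0.18, limma adjusted p = 0.00919) at 1 of 2, and by 0.53 without background correction. Meox1, a homeobox gene of the somite, was detected on all scramble arrays and on 0 siDJ-1 arrays, so it entered the test through the scramble arrays, and no fold is given. Its probe is 1 of the 2 lower ones, so that share is partly set by the filter. The number of higher probes was 3 without scramble replicate 1 and 2 without scramble replicate 2, siDJ-1 replicate 1 or siDJ-1 replicate 2.

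Markers of other cell states were measured beside the members. Of all tested probes 13.6% were called lower and 16.5% higher, and these lists are short. For proliferating myoblasts 10 probes were tested, 0 higher and 2 lower by limma (Pcna -0.57 and Ccnb1 -0.57), with a median change of 0.16. Of the fibroblast markers, 4 of 4 tested probes were lower, with a median of -0.96. Their summed normalized signal was 10389, 9940 and 9354 in scramble myotubes against 4726, 5751 and 4127 in siDJ-1 myotubes. Its most abundant gene, Dcn, fell at both tested probes (-1.34 and -1.79), as did Pdgfra (-0.58) and Col1a1 (-0.47), and Thy1 was not detected on any array. The Pdgfra call was lost under 8 of 16 alternatives. The fibroblast markers were lower on the same arrays as Myod1, and their part in that result was not tested.
Of the other lists, the smooth muscle markers had 6 tested probes with 0 higher and 2 lower by limma, both of Acta2 (-0.63 and -0.62). The other 3 Acta2 probes were not called (-0.35, -0.24 and 0.17), nor was the mean of its probes (-0.33, limma adjusted p = 0.0625), and Cnn1 and Myh11 were not tested. The adipocyte markers had 2 tested probes, Pparg called higher (1.06, and 0.61 without background correction) and Cebpa called lower. These calls were lost under 5 of 16 and 9 of 15 alternatives. Cebpa was detected on 3 scramble arrays and 1 siDJ-1 array, so it entered the test through the scramble arrays, and no change is given. Adipoq and Plin1 were not detected on any array. The 4 tested osteoblast probes and the single leukocyte probe (Cd68) were not called by limma, and Runx2, Sp7 and Ptprc were not detected on any array.

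The probes with the profile most like that of Myod1 over the 6 arrays, by the root mean square difference of log2 values centred on each probe's mean, were 5033413D16RIK (0.04), Memo1 (0.05) and Vamp8 (0.05), with changes of -0.93, -0.91 and -0.94. For the Myog probe ILMN_2863674, whose values spanned 0.23 log2 units, they were Mrps18b (0.02), Eif2s2 (0.03) and Adprh (0.03), none of them called (changes of -0.12, -0.08 and -0.10).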

How the data were processed

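RNA of 6 C2C12 myotube cultures or samples, 3 per siRNA, was hybridised by the authors to Illumina Mouse WG-6 V2 arrays. The deposited values per probe were a signal intensity, averaged by the authors over beads and not background-corrected or normalized, a detection p-value against negative controls, and the standard error and other number, the count of beads. Columns of each sample were used as labelled, and the labels gave the groups.

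Signals were corrected with normexp using the mean and spread of the negative controls inferred from detection p-values (offset 16), quantile normalized and taken to log2. The 17890 probes with detection p under 0.05 on at least 3 of 6 arrays were tested with limma 3.58.1 (R 4.3.3; lmFit, eBayes, siDJ-1 against scramble), with Benjamini-Hochberg adjustment over all of them. The scripts were tested on simulated data. Names came from the RefSeq GRCm38.p6 gene table for 32345 of 45281 probes (29586 by gene number and 2759 by accession), and the file's name was kept for 12936. Probes of a gene were kept apart. The filter did not use the groups, so a dim probe could enter through the group where it is higher, as Mef2b, Meox1 and Cebpa did. Without the filter Mef2b and Meox1 kept their call and Cebpa lost it. That fit used the same values, so no support is read from the calls kept.

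Named genes were every member probe, Park7, the Id genes, Tcf4, Mdfi, Msc and Twist1, the brightest target probe and, per other list, up to 3 rises and 3 falls among called probes that did not overlap and were detected throughout a group. Others were chosen after their values were seen. The members and lists were chosen with earlier results of these data known. Alternatives covered background correction, scaling, offset, filter, variance model, array weights, replicate block, leaving out each array and averaging the probes of a gene. Array values of Mybph, Mymx, Spry1, Hdac1 and Mef2a of the lists were not analysed here. A further gene of the lists is counted in its list and not reported here.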

Additional observations from a re-analysis of the deposited data

How the results depend on the processing

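Park7 and Myod1 kept their call under all 16 alternatives, as did 13 of the 33 other probes followed. The 33 include probes without a call to keep (Tcf4, the Id2 probes, Msc and Acta1), so this is not a share of stable calls. Vcam1 was dropped by the strict filter and kept its call under the other 15. Mef2b and Meox1 entered the test through the group where they were detected, so no stability is read from their calls. Without background correction the changes of dim probes shrank, to -0.702 for Id3, -0.526 for Sox8 and 0.307 for Vcam1, all still called, and to -0.335 for Msc. Among the 7 member probes the count called was 1 without background correction, without the filter on dim probes and under the strict filter (detection p under 0.01 on all arrays), which drops Myf6, and 1 to 2 when an array was left out. Myf6 changed by -0.23 without background correction, -0.21 with the 75th percentile shift on such values and -0.66 without the filter, none of which passed the threshold, and by -0.79 to -0.53 without single arrays. Tcf12 ILMN_1215928 passed at -0.28 when uncorrected signals were shifted to the 75th percentile. The cause was not tested. Without the filter 3519 probes were called, where more probes were tested. Leaving out an array gave 2564 to 5290 called probes and 30 to 51 of those in the lists.

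Signs turned for probes that were not called. Under the 75th percentile shift after background correction these were Myog ILMN_2863674 (0.0239), Tcf4 (0.0221) and Acta1 (0.237), and Acta1 also without background correction at that shift (0.179) and with array weights (0.00133). With the probes of a gene averaged, Myog was at 0.0545 and Id2 at 0.0429. Without single arrays Id2 ILMN_1228557 ranged from -0.387 to 0.0541, Id2 ILMN_2887239 from -0.00608 to 0.478 and Acta1 from -0.0492 to 0.0666. The cause was not tested.

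The within-array change of Myod1 against Myog, recomputed under alternatives chosen after seeing the data, ranged from -0.87 to -0.66 for ILMN_2863674 and from -1.20 to -0.89 for ILMN_2621812. No scaling moved the median of all tested probes by over 0.1.

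With the replicate number as a replicate block, 4350 probes were called, 4061 of them shared with the unblocked fit, with 2 of the members and 45 of the list probes. Deviations of same-numbered arrays correlated weakly, at 0.05, 0.05 and 0.02, yet each array correlated best with its own number. These values do not settle whether the numbers pair the arrays. Dim probes such as Myf6 are limited by their small signal over background.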
